A study of Mus musculus with 12 samples.

Results

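The genes described here are 9 modulators of Notch signalling, taken by symbol from the 24704 named genes among 25428 probe sets on the arrays. They comprise the fringe enzymes Lfng, Mfng and Rfng, the Numb proteins Numb and Numbl, the DNA-binding factor Rbpj and the mastermind coactivators Maml1, Maml2 and Maml3. Expression was measured in mouse liver sinusoidal endothelial cells (LSEC) on 12 Affymetrix arrays, 6 labelled Control and 6 labelled NICD-OE-HEC. NICD-OE-HEC mice carried the Clec4g-Cre(tg/wt) driver together with the Rosa26-N1ICD-IRES-GFP allele, so that cells in which Cre had been active made the Notch1 intracellular domain (NICD) and a green fluorescent reporter. The Control samples carry the genotype label Ctrl, and neither their alleles nor the age of the mice of either group is given in the sources used here. Clec4g is expressed by sinusoidal endothelium, and the share of recombined cells in each sample is not known from these data. Each sample was a pool of livers from 3 mice, and the cells were selected magnetically by CD146, which Mcam encodes. The comparison asks how these modulators differ when the Notch pathway is switched on in the hepatic endothelium.

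Notch receptors are cut on ligand binding and release their intracellular domain, which enters the nucleus. There it binds RBPJ and a mastermind protein to turn a repressing complex into an activating one. Fringe enzymes act earlier, in the Golgi, where they extend O-fucose on the receptor's extracellular repeats and so shift its response between Delta-like and Jagged ligands. Numb is an endocytic adaptor at the cell cortex that lowers the amount of receptor able to signal. In blood vessels the pathway is known for setting arterial fate and restraining sprouting.

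Lfng, Numb and Rbpj fell in NICD-OE-HEC, whereas none of the other 6 genes passed the test in either direction. Lfng fell 2.59-fold, Numb 1.73-fold and Rbpj 1.37-fold. The Rbpj call was lost in 10 of 20 alternative settings of the fit, while those of Lfng and Numb held in all 20. Thus 3 of 9 genes were lower at an adjusted p under 0.05 and 0 were higher, where 5.59% of all probe sets were lower, 4.89% were higher and 10.5% were called in all (limma's moderated test, Benjamini-Hochberg adjustment over all 25428 probe sets). These shares take in dim probe sets, whereas all 9 genes were brighter than the median value of the arrays. With the fit and its adjustment repeated without the dimmest 50 percent, 1629 probe sets were lower and 1325 higher, where 1422 and 1244 of all were. More calls thus came from 50 percent of the probe sets. The share called in that fit was larger, so 5.59% is too low a share to set beside genes this bright. The adjustment over fewer probe sets also sets the cutoff anew, and its part in the larger share was not separated. The median log2 difference of the 9 genes was -0.16, beside -0.01 for all probe sets. For 2 genes, Lfng and Numb, the 6 values of one group did not overlap the 6 of the other, which was the case for 6.68% of all probe sets (3.7% with NICD-OE-HEC lower).

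To show the regulatory sequence next to these 3 genes, the 250 bases before a RefSeq transcription start (GRCm38.p6) are printed 5′ to 3′. Capitals mark matches to TGGGAA, the core of the RBPJ site, or to its reverse complement TTCCCA. For Numb and Rbpj, which have 3 and 2 start sites in the RefSeq promoter table, one start site each is shown.
Lfng, chr5:140607091-140607340, plus strand: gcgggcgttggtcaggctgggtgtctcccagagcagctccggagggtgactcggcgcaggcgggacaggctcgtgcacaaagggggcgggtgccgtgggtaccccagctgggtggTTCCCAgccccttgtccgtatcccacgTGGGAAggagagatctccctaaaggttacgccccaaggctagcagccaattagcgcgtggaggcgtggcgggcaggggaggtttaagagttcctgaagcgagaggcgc
Numb, chr12:83921935-83922184, minus strand: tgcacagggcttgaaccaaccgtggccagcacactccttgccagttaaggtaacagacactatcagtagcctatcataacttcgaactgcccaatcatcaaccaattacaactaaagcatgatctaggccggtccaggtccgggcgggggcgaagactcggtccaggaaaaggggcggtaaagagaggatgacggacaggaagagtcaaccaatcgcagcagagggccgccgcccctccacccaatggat
Rbpj, chr5:53590096-53590345, plus strand: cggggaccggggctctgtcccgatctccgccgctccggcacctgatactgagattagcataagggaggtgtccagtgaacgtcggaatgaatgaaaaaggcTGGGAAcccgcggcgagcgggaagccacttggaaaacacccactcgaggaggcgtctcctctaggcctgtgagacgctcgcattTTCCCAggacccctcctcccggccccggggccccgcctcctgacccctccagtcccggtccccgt
The Lfng sequence held the core at 135 to 130 and at 108 to 103 bases before the start. The second of these extends to the longer RBPJ motif GTGGGAA, from 109 to 103. It overlaps CACGTG, a motif bound by HES and HEY repressors, at 112 to 107. A second motif of those repressors, CACGCG, was matched on the reverse strand at 55 to 50. The Rbpj sequence held the core at 149 to 144 and at 65 to 60, the first on the printed strand and the second on the other, and neither extends to GTGGGAA. None of the 3 Numb windows, each of 300 bases from 250 before to 50 after a start, held any of these motifs. Promoter windows were found for 8 of the 9 genes, 12 windows in all. The core was matched on either strand in 5 of them, belonging to Lfng, Rbpj, Maml2 and Maml3, and GTGGGAA in 1. The 2 Rbpj windows overlap. The match at 65 to 60 in the printed one is the same site as that at 205 to 200 in the other, so it counts in both windows. Over all 32851 windows of that length, 25.6% held TGGGAA, 6.38% GTGGGAA, 7.15% CACGTG and 9.27% CACGCG, counting both strands. A match describes the letters in the window and does not show that a factor binds there.

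Values are log2 expression made by RMA, a method that gives all arrays the same distribution of values. The array median was 3.67, and all 9 genes had both group means above it. No detection calls were available, so a level near or below that median cannot be told from background. All p-values are two-sided.

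**Figure D1:**
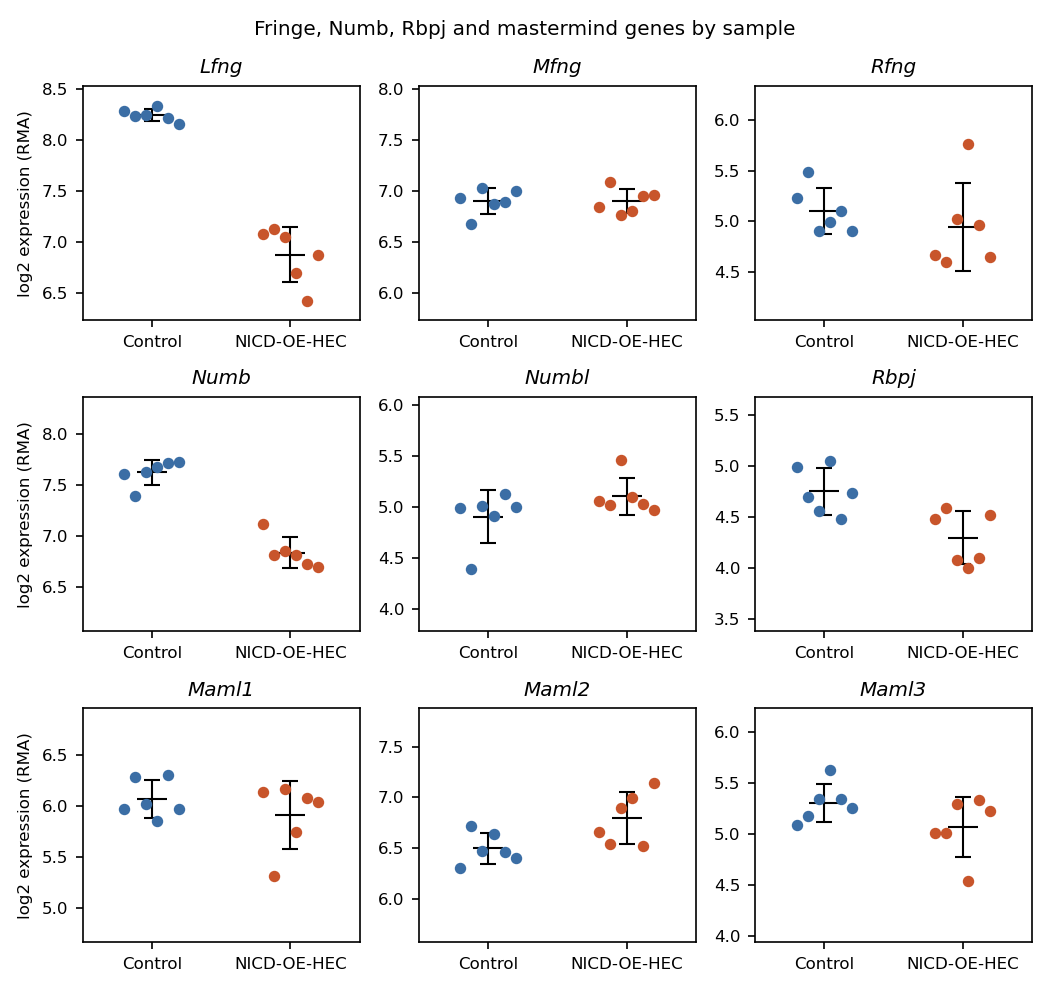
Log2 expression (RMA) of each of the 9 genes on the 6 Control and 6 NICD-OE-HEC arrays. Each point is an array, horizontal bars are group means and error bars SD, and every panel spans the same number of log2 units. The groups are apart for Lfng and Numb and overlap for the other genes.

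The 3 fringe genes moved unequally. Lfng, the lunatic fringe, ranged in Control from 8.16 through a median of 8.24 to 8.34. In NICD-OE-HEC it ranged from 6.42 through a median of 6.96 to 7.12. The highest NICD-OE-HEC array thus lay 1.03 below the lowest Control array. The mean fell from 8.25 ± 0.06 to 6.88 ± 0.27 (SD, n = 6 each), a log2 difference of -1.37 (SE 0.11, 95% interval -1.62 to -1.13, adjusted p = 1.25e-06 by limma), which leaves 38.7% of the Control level. It ranked number 76 of 25428 probe sets from the most negative difference. The Control arrays lay close together, while NICD-OE-HEC arrays spread 4.33 times as widely by SD, with replicate 5 the lowest at 6.42 and replicate 4 next at 6.70. Over single arrays left out the difference stayed between -1.42 and -1.28.

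Mfng, the manic fringe, ran from 6.67 through a median of 6.91 to 7.03 in Control and from 6.77 through 6.89 to 7.09 in NICD-OE-HEC. The ranges overlapped, with 1 NICD-OE-HEC array above every Control array. The difference was 0.00 on the log2 scale (SE 0.09), and its 95% interval of -0.19 to 0.19 leaves out changes beyond those sizes (adjusted p = 0.996). Rfng, the radical fringe, ran from 4.91 through 5.05 to 5.49 in Control and from 4.60 through 4.82 to 5.76 in NICD-OE-HEC. Here 5 of 6 NICD-OE-HEC arrays lay below the Control mean, and replicate 4, at 5.76, lay above every other array. The Rfng difference of -0.16 did not pass (95% interval -0.54 to 0.22, adjusted p = 0.703), and it was -0.32 without that array, -0.08 without Control replicate 2 and -0.09 without NICD-OE-HEC replicate 2.

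Ratios taken within each array test whether the fringe genes changed by different amounts, since they are free of the scaling between arrays. Between members of the fringe, Numb and mastermind families 7 such pairs were compared, each by an exact permutation test (two-sided; 924 assignments of 12 arrays into groups of 6), with p-values adjusted over the 7 pairs. The log2 ratio of Lfng over Mfng was lower in NICD-OE-HEC by -1.37 (SE 0.13, exact p = 0.0022, the smallest this design gives; adjusted p = 0.0051). The ratio of Lfng over Rfng was lower by -1.21 (SE 0.27, exact p = 0.0022, adjusted p = 0.0051). In both pairs the ratios of the 2 groups did not overlap. Mfng over Rfng differed by 0.16 (SE 0.25) and did not pass (exact p = 0.530, adjusted p = 0.619).

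**Figure D2:**
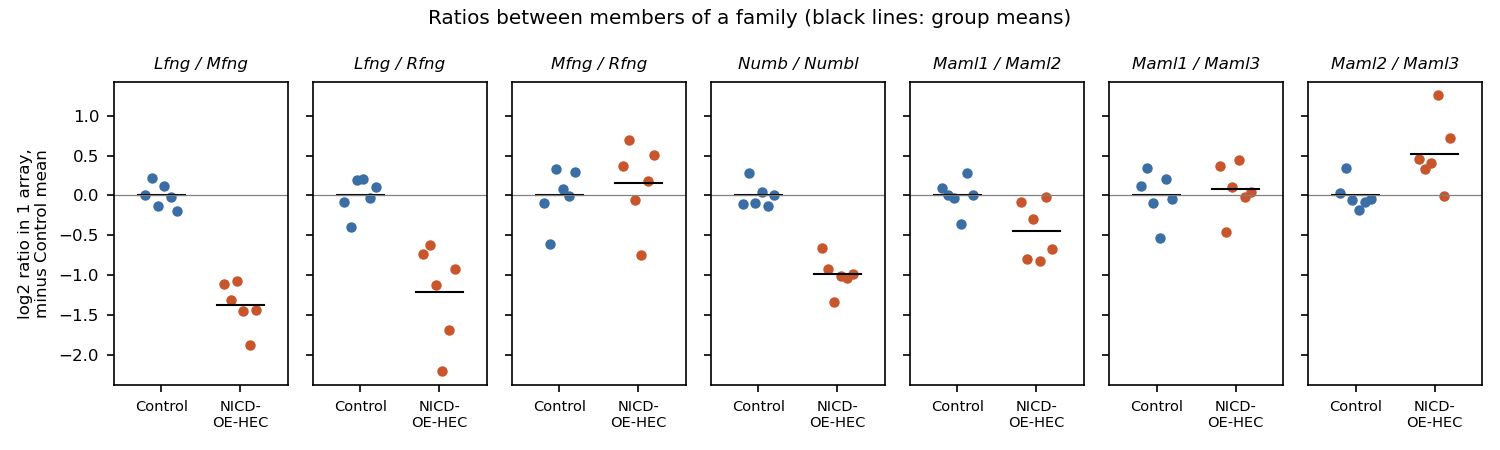
Log2 ratio between 2 genes of a family within each array, with the Control mean of that ratio set to 0, for the 7 pairs compared. Points are arrays, 6 per group, and black lines are group means. The ratios of Lfng over Mfng, Lfng over Rfng and Numb over Numbl separate the groups, and the other 4 ratios overlap between them.

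The Numb proteins also divided. Numb ran in Control from 7.40 through a median of 7.65 to 7.73 and in NICD-OE-HEC from 6.70 through 6.82 to 7.12. Every NICD-OE-HEC array lay below every Control array, with a gap of 0.28 between the groups. Its mean fell from 7.63 ± 0.12 to 6.84 ± 0.15 (SD, n = 6 each), a log2 difference of -0.79 (SE 0.09, 95% interval -0.99 to -0.59, adjusted p = 3.50e-05 by limma), to 57.9% of Control. Its range over single arrays left out was -0.84 to -0.76. Numbl, the Numb-like paralog, ran from 4.40 through 5.00 to 5.13 in Control and from 4.97 through 5.05 to 5.47 in NICD-OE-HEC. All 6 NICD-OE-HEC values lay above the Control mean but only 1 above the highest Control value. The Numbl difference of 0.20 did not pass (SE 0.13, 95% interval -0.07 to 0.47, adjusted p = 0.401). Control replicate 2 was the lowest Control array for both genes, and without it the Numbl difference was 0.10. The log2 ratio of Numb over Numbl was lower in NICD-OE-HEC by -0.99 (SE 0.11, exact permutation p = 0.0022, adjusted p = 0.0051), and the groups did not overlap.

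Rbpj encodes the factor through which the NICD reaches DNA. It ran from 4.49 through a median of 4.72 to 5.05 in Control and from 4.00 through 4.29 to 4.59 in NICD-OE-HEC. Of the 9 genes Rbpj had the lowest mean in each group, closest to the array median of 3.67. The groups overlapped, with 3 of 6 NICD-OE-HEC arrays below all Control arrays and 6 of 6 below the Control mean. The mean fell from 4.75 ± 0.23 to 4.30 ± 0.26 (SD, n = 6 each), a log2 difference of -0.46 (SE 0.13, 95% interval -0.74 to -0.17, adjusted p = 0.0415 by limma), to 72.9% of Control. This call did not hold when Control replicate 1, 2, 4 or 6 or NICD-OE-HEC replicate 3, 4 or 5 was left out, with differences between -0.51 and -0.40 and adjusted p-values between 0.0285 and 0.1004 over all 12 single omissions. Mouse RefSeq lists 3 Rbpj pseudogenes, 0 of them with a named probe set here, and whether the Rbpj probe set also binds their transcripts is not known from these data.

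No mastermind gene passed the test alone. These coactivators bind the groove formed by RBPJ and the NICD and recruit histone acetyltransferases. Maml2 ran from 6.31 through 6.47 to 6.72 in Control and from 6.53 through 6.78 to 7.15 in NICD-OE-HEC, where 6 of 6 arrays lay above the Control mean and 3 above every Control array. Its difference of 0.29 had a 95% interval of 0.04 to 0.55 but missed the threshold after adjustment (adjusted p = 0.158 by limma). Maml1 ran from 5.86 through 5.99 to 6.31 in Control and from 5.31 through 6.05 to 6.17 in NICD-OE-HEC, a difference of -0.15 (95% interval -0.46 to 0.15, adjusted p = 0.622). Replicate 2 of NICD-OE-HEC, at 5.31, was its lowest array, and without it the Maml1 difference was -0.03. Maml3 ran from 5.08 through 5.29 to 5.63 in Control and from 4.54 through 5.12 to 5.33 in NICD-OE-HEC, a difference of -0.23 (95% interval -0.52 to 0.05, adjusted p = 0.355). The lowest Maml3 value, 4.54, was that of NICD-OE-HEC replicate 4, and the difference was -0.13 without it.

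The mastermind genes were then compared within arrays. The log2 ratio of Maml2 over Maml3 was higher in NICD-OE-HEC by 0.53 (SE 0.19, exact permutation p = 0.0108, adjusted p = 0.0189), with overlapping groups. Maml1 over Maml2 was lower by -0.45 (SE 0.17, exact permutation p = 0.0281, adjusted p = 0.0394), also with overlapping groups. That call was lost in 9 of 12 single omissions, those of Control 1, 2, 3, 5 or 6 and NICD-OE-HEC 2, 3, 4 or 6, where the difference ran from -0.53 to -0.37 over all 12. Maml1 over Maml3 differed by 0.08 (SE 0.18) and did not pass (exact permutation p = 0.664, adjusted p = 0.664).

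**Figure D3:**
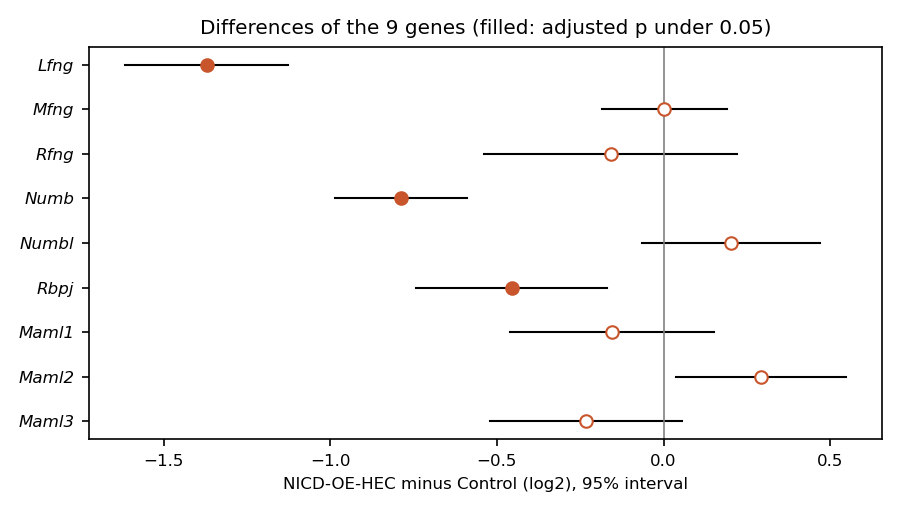
Log2 difference, NICD-OE-HEC minus Control, of the 9 genes with its 95% interval from the limma fit, filled where the adjusted p was under 0.05. Lfng (-1.37), Numb (-0.79) and Rbpj (-0.46) lie to the left of 0, and the interval of Maml2 (0.04 to 0.55) is open because it did not pass after adjustment.

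Spread among arrays was larger in NICD-OE-HEC than in Control for 7 of the 9 genes, the exceptions being Mfng and Numbl. Of all probe sets 51.5% had the larger SD in NICD-OE-HEC. The 9 genes share the same arrays, and whether their count differs from that share was not tested. For Rfng (replicate 4, 5.76), Maml1 (replicate 2, 5.31) and Maml3 (replicate 4, 4.54) the spread in NICD-OE-HEC took in 1 array far from the group mean. For likeness of pattern, each group's mean was subtracted and Pearson's r was taken over the 12 arrays against 11511 named genes brighter than the array median. Closest to Lfng were Cyp1a2, a hepatocyte cytochrome (r = 0.92), and Tomm20, a mitochondrial import receptor (r = 0.92). Closest to Numb were Fbxl8 (r = 0.92) and Strn, a scaffold of phosphatase complexes (r = 0.88). Closest to Rbpj were Abhd13 (r = 0.88) and the peptidase Prep (r = 0.86). These are the highest of 11511 values over few arrays and describe the ranking only.

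The rest of the pathway was examined in 10 lists of 103 named genes, of which 16 rose and 12 fell, 27.2% beside 10.5% of all probe sets, with a median log2 difference of 0.01. Most of these genes were brighter than the array median. More than 10.5% of the brighter probe sets were called in the fit without dim ones, so these shares are not like for like. The 27.2% is therefore not read as an excess. Of 4 receptors, Notch3 (0.59, adjusted p = 0.0329 by limma) and Notch4 (0.55) rose, Notch3 from a Control mean of 3.90 near the array median. Notch1 itself differed by 0.19 without a call (8.68 ± 0.26 and 8.87 ± 0.24, SD, n = 6 each; adjusted p = 0.486), and it is not known whether its probe set overlaps the transgene's segment. Of 5 ligands, Jag1 (1.54) and Dll4 (0.90) rose and 0 fell. Of 8 Notch target genes 4 rose, the HEY repressor Hey1 (2.70), the feedback inhibitor Nrarp (1.04), the repressor Hes1 (0.76) and Heyl (0.50), so that these targets were higher on the arrays where Lfng, Numb and Rbpj were lower. Heyl, whose Control mean lay below the array median, was named after its value was seen.

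Other enzymes for the sugars of the receptors were examined beside fringe. Of 15 genes for sugars on the receptor's repeats and for GDP-fucose supply 1 rose and 3 fell, 26.7% beside 10.5% of all probe sets, with a median of -0.16. However, 14 of the 15 were above the array median in both groups, and more than 10.5% of the brighter probe sets were called. The 26.7% therefore does not mark this list out. Eogt, which adds O-linked N-acetylglucosamine, rose by 0.70 (SE 0.11, adjusted p = 3.93e-04 by limma). Xxylt1, which adds xylose (-0.51), Fpgt, of the GDP-fucose salvage route (-0.38), and Pofut1, which adds the O-fucose that fringe extends (-0.33, adjusted p = 0.0227), fell, Pofut1 being named after its value was seen. Among 9 genes for receptor cleavage the gamma-secretase subunits Aph1a (-0.35) and Ncstn (-0.31) fell and 0 rose.

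Partners of Numb moved in both directions. Of 17 measured, 4 fell and 2 rose, 35.3% beside 10.5% of all probe sets, with a median of -0.12. However, 15 of the 17 were above the array median in both groups, and more than 10.5% of the brighter probe sets were called. These shares are therefore not like for like. Lnx2, a relative of the ubiquitin ligase that targets Numb, fell by 0.92 (SE 0.12, adjusted p = 1.08e-04 by limma). Ap2a2, an alpha subunit of the AP-2 clathrin adaptor that Numb binds, fell from 9.06 ± 0.06 to 8.29 ± 0.07 (SD, n = 6 each). Named after their values were seen, the endocytic scaffold Eps15 (-0.67) and the clathrin uncoating kinase Gak (-0.33) fell too. Ehd4, an endocytic recycling protein, rose by 0.68, and the polarity protein Pard3, also named after its value was seen, by 0.36 from a level near the array median. In the related list of 13 ubiquitin ligases and endocytic factors of the receptors and ligands, Nedd4l (0.61), Dtx3 (0.49) and Nedd4 (0.32) rose and 0 fell. That share of 23.1% does not mark the list out among bright probe sets either.

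Partners of RBPJ moved in both directions. Of 21 corepressor genes 2 rose and 2 fell, 19% beside 10.5% of all probe sets, with a median of 0.10. However, 18 of the 21 were above the array median in both groups, and more than 10.5% of the brighter probe sets were called. The 19% therefore does not mark this list out. Tle3, a Groucho corepressor, rose by 0.71 (SE 0.09, adjusted p = 1.17e-04 by limma), and its relative Tle4 fell by 0.39. Tbl1xr1, a subunit of the NCoR complex, rose by 0.69 (SE 0.10), whereas its relative Tbl1x, named after its value was seen, fell by 0.28. Of 11 coactivator genes 1 fell, the acetyltransferase Kat2b (-0.48, SE 0.09, adjusted p = 0.00130), and 0 rose, a share of 9.09%. Rbpjl, the tissue-restricted paralog of Rbpj, stayed below the array median in both groups (3.08 and 3.12).

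**Figure D4:**
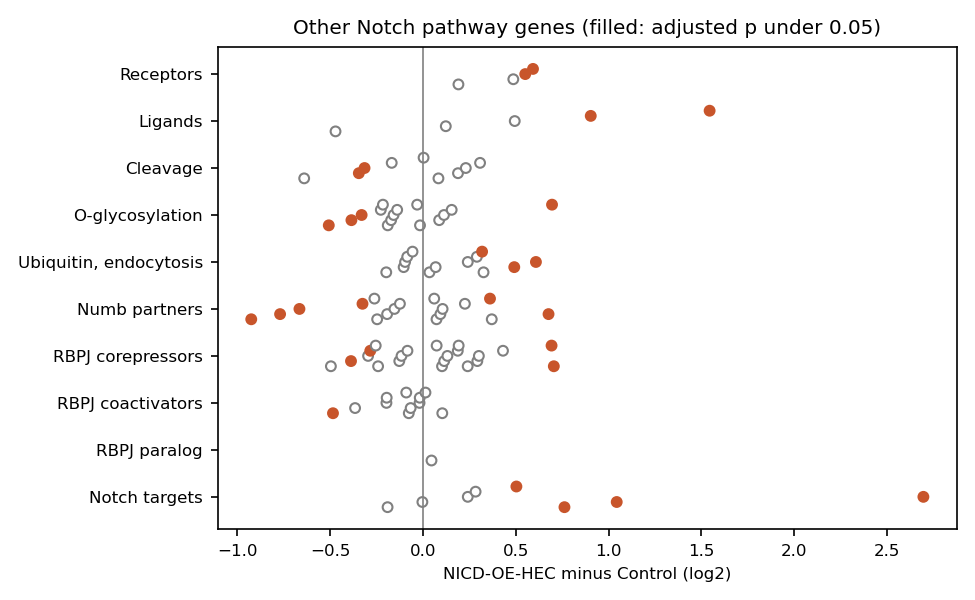
Log2 difference, NICD-OE-HEC minus Control, of the other Notch pathway genes by list, 1 point per gene, filled where the adjusted p was under 0.05. Vertical offsets only separate points. The targets and ligands hold the largest positive differences, up to Hey1 at 2.70, and the Numb partners hold the most negative called one, Lnx2 at -0.92.

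Cell composition was read from marker lists on the same arrays. In bulk samples fewer cells of a type and less RNA per cell cannot be told apart. All 10 sinusoidal markers lay above the array median in both groups, as did all 10 Kupffer cell, 9 hepatocyte and 10 stellate cell markers. Of the sinusoidal markers 9 fell and 1, Lyve1, rose. Clec4g, the source of the Cre driver's regulatory sequence, dropped to 11.53 from 12.34 (log2 difference -0.81, adjusted p = 7.61e-05 by limma). The list's summed level (log2 of the summed linear values) ran from 14.54 to 14.89 in Control and from 14.07 to 14.33 in NICD-OE-HEC. Pan-endothelial markers were mixed, with 2 of 8 higher, including the selection antigen Mcam (0.92), and 3 lower, and summed levels of 13.48 to 13.69 and 13.41 to 13.57.

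Markers of several other cell types were higher on the NICD-OE-HEC arrays. Of 9 neutrophil markers 7 rose, their sum running from 6.84 to 8.86 in Control and from 9.13 to 11.04 in NICD-OE-HEC, and Ly6g lay below the array median in both groups. Of 9 hepatocyte markers 6 rose, with sums of 10.45 to 11.73 and 11.34 to 12.72, and all 5 cholangiocyte markers rose, with sums of 6.26 to 6.75 and 6.95 to 7.60 and Cftr below the array median in both groups. Of 10 early-response genes, which digestion of tissue can induce, 8 rose, with sums of 10.53 to 12.05 and 11.81 to 13.32. Among the risers of these lists, Retnlg (3.38), Krt19 (3.55) and Egr2 (3.65) had Control means below the array median, and Ngp (3.72) one near it. Of 10 stellate cell markers 3 rose and 1 fell, with sums of 8.55 to 10.15 and 9.76 to 10.23, and of 10 Kupffer cell markers 1 rose, with sums of 11.31 to 12.62 and 11.49 to 12.92. Lymphocytes also express fringe genes, and 0 of 7 B cell and 0 of 8 T and NK cell markers were called by limma. Their sums ran from 6.24 to 6.53 and 5.94 to 7.02 for B cells, with Ms4a1, Pax5, Cr2 and Blk below the array median in both groups, and from 6.48 to 6.97 and 6.30 to 7.22 for T and NK cells, with Cd3d, Cd2 and Ncr1 below it. The part of these other cells in the falls of Lfng, Numb and Rbpj was not tested.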

How the data were processed

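The authors deposited log2 expression per probe set, made with RMA, per the submitters' processing notes. Neither chip definition nor software is given in the sources used here. Cells came from collagenase digestion for 25 min at 38 °C and a 19.3% Nycodenz gradient, per the labels' protocols. Of 25428 probe sets, 24705 had a gene symbol in the platform annotation of 2018, which gives 24704 genes because 1 symbol had 2 probe sets, and 723 are unnamed here. Differences were fitted by lmFit and eBayes (limma 3.58.1, R 4.3.3) for 2 groups of 6 without covariates, with Benjamini-Hochberg adjustment over all probe sets and calls at 0.05. For genes the SE is the moderated one of limma, and for ratios it comes from the 2 group SDs. The labels call the samples biological replicates, and their number limits the precision. On data simulated from these 25428 probe sets for this comparison, 40.6% of 69 changes of log2 0.5, 95.6% of 68 of log2 1 and 100% of 63 of log2 2 were recovered, and 7 of 163 calls were false. The simulation drew independent normal noise with the same SD in both groups. It held far fewer changes than the data, where 2666 probe sets were called. Its recovery and false share check the fit and need not hold for these data. Members and lists were chosen with earlier results of these data known. Named genes are the 9 members, Notch1, Clec4g, up to 3 called genes of each pathway list by size (otherwise the 1 with the largest difference) and the 2 genes most like each called member. Alternatives were centring, array weights, omitted arrays, a replicate block, eBayes made robust with an intensity trend, filters on the dimmest 25 or 50 percent, and renewed quantile normalization.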

Additional observations from a re-analysis of the deposited data

Results flagged for a closer look

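In 5 of the 18 sets of 6 arrays examined (9 genes in 2 groups), 1 array stood apart from the others by Dixon's criterion, which chance alone meets in about 1 of 20 sets. Control replicate 2 was low for Numb (7.40, the next array at 7.61) and for Numbl (4.40, the next at 4.91). NICD-OE-HEC replicate 1 was high for Numb (7.12, the next at 6.85), yet below every Control array. NICD-OE-HEC replicate 3 was high for Numbl (5.47, the next at 5.10). NICD-OE-HEC replicate 4 was high for Rfng (5.76, the next at 5.03).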

How the results depend on the processing

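Lfng and Numb kept their fall and their call under all 20 alternatives of the limma fit, with differences from -1.42 to -1.28 and from -0.84 to -0.76. Rbpj kept its direction in all 20 and its call in 10, with an adjusted p of 0.0539 under an intensity trend with robust eBayes, 0.0537 with array weights and 0.0937 without both Control 2 and NICD-OE-HEC 4, which an earlier description of these data set apart. The other 6 genes passed in none of the 20. The number of members called lower was 2 or 3, and over single arrays left out 1017 to 1323 probe sets were higher and 1090 to 1647 lower. The labels do not say that a shared replicate number marks a shared source, and the evidence in the values was mixed. Deviations of same-numbered arrays had r of 0.219, 0.178 and 0.103 over probe sets for replicates 1, 5 and 6, each the best match of its number, and -0.0697 to -0.105 for the other 3, so the samples were not treated as paired. With the replicate block 1294 probe sets were higher and 1213 lower, and 3 members were called lower. For the ratios, the replicate block is an exact sign-flip test over 64 sign patterns, whose smallest p of 0.0312 can pass adjustment over 7 pairs only if at least 5 pairs reach it, so it says nothing on stability. Under that block Lfng over Mfng (-1.37), Lfng over Rfng (-1.21), Numb over Numbl (-0.99) and Maml1 over Maml2 (-0.45) each had an adjusted p of 0.0547 and Maml2 over Maml3 (0.53) one of 0.0875. Maml1 over Maml2 was also lost without Control 2 and NICD-OE-HEC 4 together (-0.37, adjusted p = 0.122), and over single arrays left out it ran from -0.53 to -0.37.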
